A study of Mus musculus with 8 samples.

Results

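The transcripts described here are those of 9 genes of the families that build and hold caveolae: the caveolins Cav1, Cav2 and Cav3, the cavins Cavin1, Cavin2 and Cavin3, and the EHD proteins Ehd1, Ehd2 and Ehd4. They were taken by gene name from a table of 54532 genes, in which each of the 9 names stood on 1 row. The samples were brown adipose tissue, a fat depot specialised for heat production, from mice of genotype WT (4 libraries) and of genotype TG (CLCF1-ATG) (4 libraries), the latter named for the interleukin-6 family cytokine CLCF1. Libraries are numbered 1, 2, 3 and 5 in each genotype, and the study asked what RNA changes go with CLCF1 in this tissue. The sources used here do not state which promoter or cell type drives CLCF1, what ATG stands for, or the strain, age, sex and treatment of the mice. They give 4 samples per genotype without saying outright that each is a separate animal, so p-values measure the spread between these samples.

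Caveolae are small flask-shaped pits of the plasma membrane and are especially abundant in adipocytes and endothelial cells. Caveolins are hairpin proteins inserted in the inner leaflet of the membrane, cavins form a peripheral coat on top of them, and EHD2 is a membrane-remodelling ATPase that sits at the neck of the pit and holds it at the surface. In fat cells caveolae are tied to insulin signalling, to lipid uptake and to buffering of membrane tension as the cell swells. EHD1 and EHD4 belong to the same ATPase family and are known chiefly for the return of endocytosed cargo to the surface.

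All 9 genes carry the same coordinates in the deposited table and in GENCODE M21 (build mm10). Cav2 (chr6:17281185-17289115) and Cav1 (chr6:17306335-17341452) are neighbours on the plus strand with 17219 bases between them, while Cav3 (chr6:112459505-112472872) lies far along the same chromosome. Cavin1 is at chr11:100956733-100970887 (minus strand), Cavin2 at chr1:51289126-51302960 (plus) and Cavin3 at chr7:105480083-105482300 (minus). Ehd1 is at chr19:6276725-6300096 (plus), Ehd2 at chr7:15946958-15967567 (minus) and Ehd4 at chr2:120089175-120154606 (minus). Genes annotated on the opposite strand overlap Cav1, Cav2, Cavin2 and Cavin3, but their summed reads over the 8 libraries were at most 9.

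Stretches upstream of the annotated start are shown for 4 genes, because the 3 with the largest rises (Cavin2, Cav2 and Ehd2) and Cav1, the neighbour of Cav2, can then be read side by side. Each is the 250 bases before a RefSeq start (GRCm38.p6), 5′ to 3′ on the strand of the gene, and capitals mark a GC box (GGGCGG on either strand). The windows are chr1:51288876-51289125 for Cavin2 (plus strand), chr6:17280935-17281184 for Cav2 (plus), chr7:15967536-15967785 for Ehd2 (minus) and chr6:17306085-17306334 for Cav1 (plus).
Cavin2: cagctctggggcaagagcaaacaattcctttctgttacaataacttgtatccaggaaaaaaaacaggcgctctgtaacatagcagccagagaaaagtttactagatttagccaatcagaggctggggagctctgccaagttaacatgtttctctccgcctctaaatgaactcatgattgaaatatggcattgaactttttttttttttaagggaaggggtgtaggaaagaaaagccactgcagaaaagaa
Cav2: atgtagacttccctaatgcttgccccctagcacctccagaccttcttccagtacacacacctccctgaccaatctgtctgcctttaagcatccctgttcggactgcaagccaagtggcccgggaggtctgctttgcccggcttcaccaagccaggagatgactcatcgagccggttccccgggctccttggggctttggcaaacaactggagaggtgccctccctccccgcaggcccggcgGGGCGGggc
Ehd2: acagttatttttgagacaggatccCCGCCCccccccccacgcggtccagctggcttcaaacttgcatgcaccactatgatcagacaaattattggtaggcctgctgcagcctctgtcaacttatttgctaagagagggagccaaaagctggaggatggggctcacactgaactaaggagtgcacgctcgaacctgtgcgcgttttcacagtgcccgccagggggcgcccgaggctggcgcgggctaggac
Cav1: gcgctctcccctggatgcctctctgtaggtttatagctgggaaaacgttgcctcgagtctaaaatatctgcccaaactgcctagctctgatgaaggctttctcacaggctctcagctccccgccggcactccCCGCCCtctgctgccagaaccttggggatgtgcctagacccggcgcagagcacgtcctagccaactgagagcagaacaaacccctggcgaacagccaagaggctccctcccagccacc
The Cavin2 window held 2 CG dinucleotides and no GC box, against 10 CG in Cav2, 12 in Ehd2 and 10 in Cav1. Over 32851 RefSeq windows of this length the median was 6 CG dinucleotides, with quartiles of 2 and 16, and 32.7% held a GC box. The GC box began 9 bases before the start in Cav2, 118 in Cav1 and 226 in Ehd2. Cav1 has another RefSeq start, whose window (chr6:17307390-17307639) held 12 CG dinucleotides and no match to any motif searched. Other motifs were searched on both strands: the STAT-type TTCNNNGAA, present in 7.02% of all windows, the TATA box TATAAA (12.4%) and the E-box CACGTG (6.02%). In these 4 windows the only match among them was 1 TATAAA in Cav1, on the minus strand. Of the 9 genes 7 had a RefSeq window, Cavin3 and Ehd1 being the others.

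The libraries held 13734231 to 15751302 reads in WT and 18494022 to 20183840 in TG, as recovered from the FPKM values (fragments per kilobase of gene length, scaled to library size). Reads of mitochondrial genes made up 24.1% to 37.5% of WT and 6.09% to 7.34% of TG libraries; the part of this difference in the results was not tested. Clcf1, which checks the genotype labels, had 0.434, 2.02, 3.40 and 2.75 FPKM in WT and 86.2, 83.0, 78.7 and 89.9 FPKM in TG (log2 change 4.87, limma adjusted p = 3.66e-06), so the labels and the gene went together in all 8 libraries. Of the 12508 genes that reached 0.5 FPKM in 4 or more libraries, 2788 were called higher and 2725 lower in TG at an adjusted p under 0.05. These are 22.3% and 21.8% of the genes tested, 44.1% in all. Scaling to the total of recovered reads in place of the authors' divisor (total-read scaling) gave 5536 higher and 1442 lower, with a median change over all genes of 0.32 on the log2 scale against 0.012 as deposited. Log2 changes in what follows are TG minus WT of FPKM + 1 as deposited. Values under total-read scaling are given beside calls and directions that it alters. The sizes of changes also move with it and are as deposited unless stated.

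Among the 9 genes 5 rose in TG: Cav2, Cavin1, Cavin2, Cavin3 and Ehd2. Cav1, Ehd1 and Ehd4 did not pass, and Cav3 was below the level for testing. Of the 8 tested none was called lower with limma, 1 was lower at an unadjusted p under 0.05 (Ehd4), and voom on the recovered reads called 0 lower and 6 higher. Over all 12508 genes voom called 5629 higher and 1447 lower, with a median log2 change of 0.45. As deposited, the median log2 change of the 8 was 0.58, against 0.012 for all genes tested. In the 5 genes that rose every TG library lay above every WT library, which was so for 22.1% of all genes tested. Every TG library lay below every WT library in 20.5% of all genes tested and in 0 of the 8, which makes 42.6% of all genes without overlap in either direction. All 8 genes were above 0.5 FPKM in each of the 8 libraries, so none entered the test through 1 group alone. In whole tissue a change in the number of cells of a type and a change in RNA per cell cannot be told apart.

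**Figure D1:**
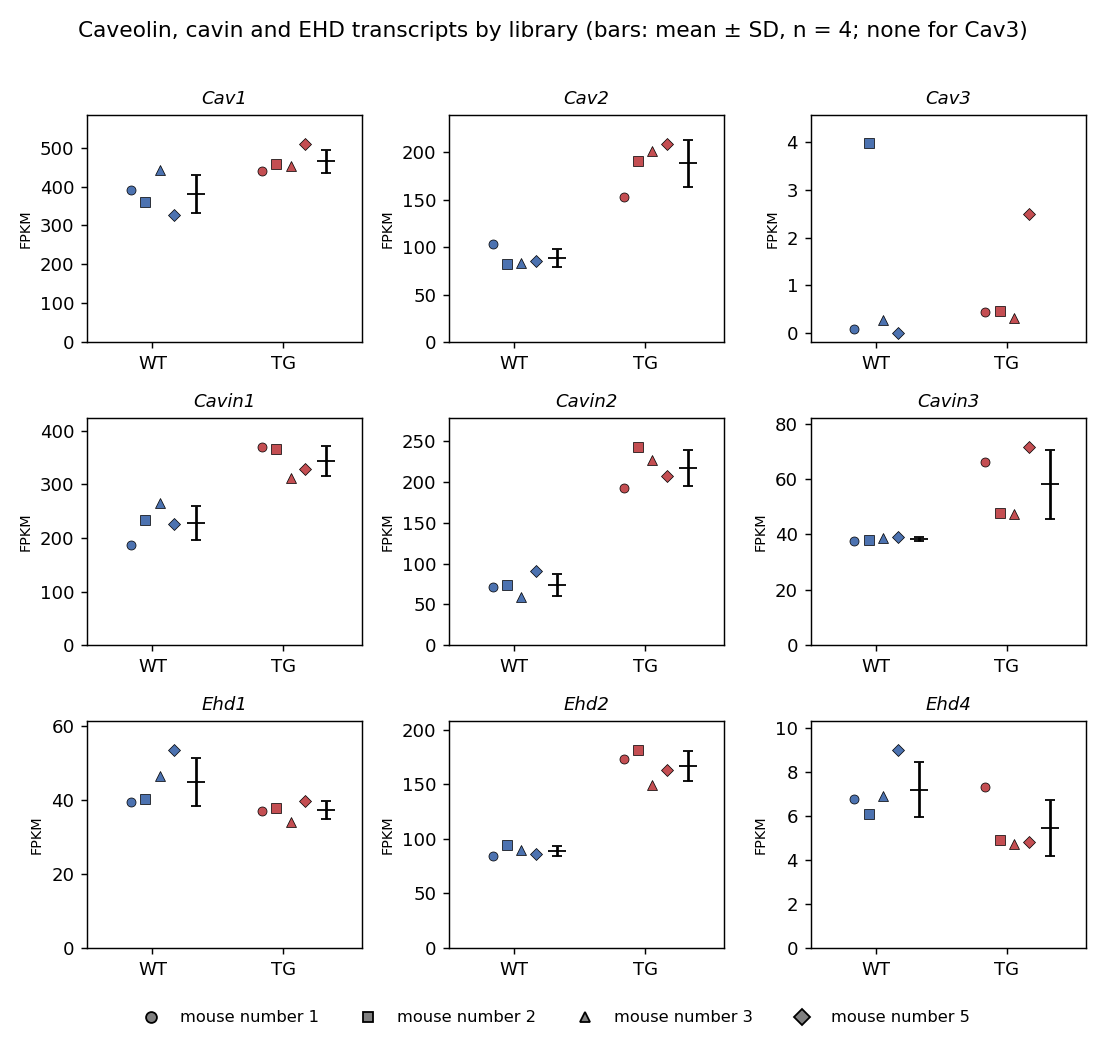
FPKM (vertical axes, linear, with their own scale per gene) of the 9 genes in the 4 WT and 4 TG libraries; each symbol is 1 library, its shape gives the replicate number, and bars give mean ± SD except for Cav3. Cavin2, Cav2, Ehd2, Cavin1 and Cavin3 are higher in all 4 TG libraries, Cav1, Ehd1 and Ehd4 overlap between genotypes, and Cav3 is above 1 FPKM in WT 2 and TG 5 only.

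Cav1 encodes the main caveolin of fat and endothelium, without which these cells form no caveolae. It was the most abundant of the 9 genes, with 391, 359.8, 442 and 327 FPKM in WT 1, 2, 3 and 5 and 439.6, 459, 453 and 508 FPKM in the same order in TG. The groups overlapped, since WT 3 lay above TG 1. The means were 380.02 ± 48.8 and 465 ± 29.9 FPKM (SD over n = 4 per genotype), and the log2 change was 0.30 with an SE of 0.127, which did not pass (limma, adjusted p = 0.0848). This outcome depended on the scaling and on 1 library: Cav1 was called higher under total-read scaling (log2 change 0.72, adjusted p = 0.00136), voom (0.73, 0.000824), rescaling without the most abundant genes (0.68, 0.000504), upper-quartile scaling (0.35, 0.0272) and quantile normalisation (0.99, 7.26e-05). It was also called higher without WT 3 (0.37, 0.0459). Over its alternatives the adjusted p ran from 7.26e-05 to 0.342. Relative to the median of all genes its change was 0.28 as deposited and 0.41 under total-read scaling.

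Cav2 encodes the partner that joins CAV1 in mixed oligomers. Its level was 103, 82.1, 83.5 and 85.02 FPKM in WT 1, 2, 3 and 5, and 153, 190.35, 200.8 and 208 FPKM in TG 1, 2, 3 and 5. No TG library came near the WT range, and TG 1 was the lowest of its group. The mean rose 2.13-fold, from 88.4 ± 9.76 to 188 ± 24.6 FPKM (SD over n = 4 per genotype; log2 change 1.08, SE 0.131, limma adjusted p = 0.000175). Cav2 was called higher in all 22 alternatives tried, with log2 changes of 0.99 to 1.51.

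Because Cav1 and Cav2 were read in the same library, their ratio does not depend on any divisor applied to a whole library. Quantile normalisation, which is no such divisor, changes it, and the difference of the log2 changes of Cav2 and Cav1 was then 0.47; for Cavin3 against Cav1 it was -0.26, against 0.28 from the FPKM. Cav2 stood at 0.263, 0.228, 0.189 and 0.25975 of the Cav1 level in WT and at 0.347, 0.415, 0.444 and 0.409 in TG. The groups did not overlap, and the mean log2 ratio in TG was 0.79 above that in WT (two-sided exact permutation p = 0.0286, the smallest that 4 against 4 allow). Adjusted over the 7 ratios to Cav1 this p was 0.05, which does not lie under the threshold, and the same holds for the other ratios at this p. None of the 7 ratios passed, 4 had an unadjusted p under 0.05, and the same 4 did not overlap between genotypes. Those 4 were at the smallest p possible, so their not passing is no sign of equal ratios. Cav2 thus went from 18.9% ± 2.31 to 28.7% ± 2.10 of the summed caveolin FPKM (SD over n = 4 per genotype).

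Cavin1 encodes the coat protein without which caveolae do not form in any tissue. It was the second most abundant of the 9 genes, with 188, 235, 265 and 226 FPKM in WT and 369, 367, 312 and 329 FPKM in TG. Every TG library exceeded the highest WT library, WT 3. The mean rose 1.51-fold, from 228 ± 31.7 to 344 ± 28.5 FPKM (SD over n = 4 per genotype; log2 change 0.60, SE 0.132, limma adjusted p = 0.00521). Relative to Cav1 it was 0.606 ± 0.0916 in WT and 0.744 ± 0.0907 in TG. These ratios overlapped and did not pass (log2 difference 0.30, exact permutation p = 0.143, adjusted p = 0.167).

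Cavin2, a cavin that helps to bend the caveolar membrane, showed the largest rise of the 9. Its FPKM were 71.5, 74.01, 58.4 and 90.9 in WT and 193, 242, 227 and 207 in TG. No TG library came near the highest WT library, WT 5. The mean rose 2.95-fold, from 73.7 ± 13.3 to 217 ± 21.7 FPKM (SD over n = 4 per genotype; log2 change 1.56, SE 0.145, limma adjusted p = 3.42e-05). Its ratio to Cav1 went from 0.19956 ± 0.0604 to 0.469 ± 0.0555, a log2 difference of 1.28 without overlap (exact permutation p = 0.0286, adjusted p = 0.05). Its share of the summed cavin FPKM was 16.1% to 25.5% in WT and 30.7% to 38.7% in TG, while that of Cavin1 was 63.3% to 73.2% and 53.2% to 58.8%.

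Cavin3 encodes a cavin first known as a binding protein of protein kinase C delta. The 4 WT libraries lay close together, at 37.6, 37.9, 38.7 and 39.0 FPKM, whereas TG ranged widely, at 66.15, 47.6, 47.3 and 71.4 FPKM in TG 1, 2, 3 and 5. TG 1 and TG 5 were well above TG 2 and TG 3, and all 4 were above WT. The mean rose 1.52-fold, from 38.3 ± 0.656 to 58.1 ± 12.5 FPKM (SD over n = 4 per genotype; log2 change 0.56, SE 0.146, limma adjusted p = 0.0115). The call was lost when WT 2 and TG 5 were left out together (log2 change 0.45, adjusted p = 0.0701), which left 4 of the 9 genes called higher; over the alternatives its adjusted p ran from 0.000354 to 0.0701. Its ratio to Cav1 overlapped between genotypes (log2 difference 0.28, exact permutation p = 0.2, adjusted p = 0.2).

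Of the EHD genes 1 rose and 2 did not pass. Ehd2, of the caveolar neck, had 84.5, 94.7, 89.8 and 86.2 FPKM in WT and 173, 181, 149 and 163 FPKM in TG. Both groups were tight and far apart. The mean rose 1.88-fold, from 88.8 ± 4.51 to 167 ± 13.6 FPKM (SD over n = 4 per genotype; log2 change 0.90, SE 0.102, limma adjusted p = 0.000114). Its ratio to Cav1 went from 0.236 ± 0.0314 to 0.35994 ± 0.0395 without overlap (log2 difference 0.61, exact permutation p = 0.0286, adjusted p = 0.05).

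Ehd1, of the recycling endosome, had 39.4, 40.3, 46.6 and 53.4 FPKM in WT and 37.02, 37.8, 34.1 and 39.8 FPKM in TG. The groups overlapped narrowly, at WT 1 and TG 5. The log2 change was -0.26 (SE 0.119, limma adjusted p = 0.106) as deposited and 0.16 (adjusted p = 0.264) under total-read scaling. Relative to the median of all genes, which that scaling raises, it was -0.27 as deposited and -0.16 under total-read scaling. Ehd4, also endosomal, was the lowest of the 8 genes tested, with 6.76, 6.10, 6.89 and 8.98 FPKM in WT and 7.33, 4.90, 4.73 and 4.82 FPKM in TG. TG 1 stood apart from the other TG libraries, within the WT range. The log2 change of Ehd4 was -0.35 (SE 0.156, limma adjusted p = 0.0949), and without TG 1 it was called lower (-0.48, adjusted p = 0.0226); under total-read scaling it was 0.019 (adjusted p = 0.926). Relative to the median of all genes Ehd4 was at -0.36 as deposited and at -0.30 under total-read scaling. Over the alternatives the adjusted p of Ehd4 ran from 0.0226 to 0.931.

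Within a library the gap between the EHD genes needed no scaling. Ehd1 stood at 0.507 ± 0.0839 of the Ehd2 level in WT and at 0.224 ± 0.0156 in TG, and Ehd4 at 0.0813 ± 0.0167 and 0.0327 ± 0.00672 (SD over n = 4 per genotype). The log2 differences were -1.17 for Ehd1 and -1.32 for Ehd4. Both ratios were chosen after the values were seen and are given as a description, without a p-value. Relative to Cav1, Ehd1 lay lower in TG without overlap (log2 difference -0.56, exact permutation p = 0.0286, adjusted p = 0.05), while Ehd4 overlapped (-0.71, exact permutation p = 0.0571, adjusted p = 0.08). Ehd2 made up 58.02% to 67.1% of the summed FPKM of the 3 EHD genes in WT and 78.5% to 80.9% in TG.

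**Figure D2:**
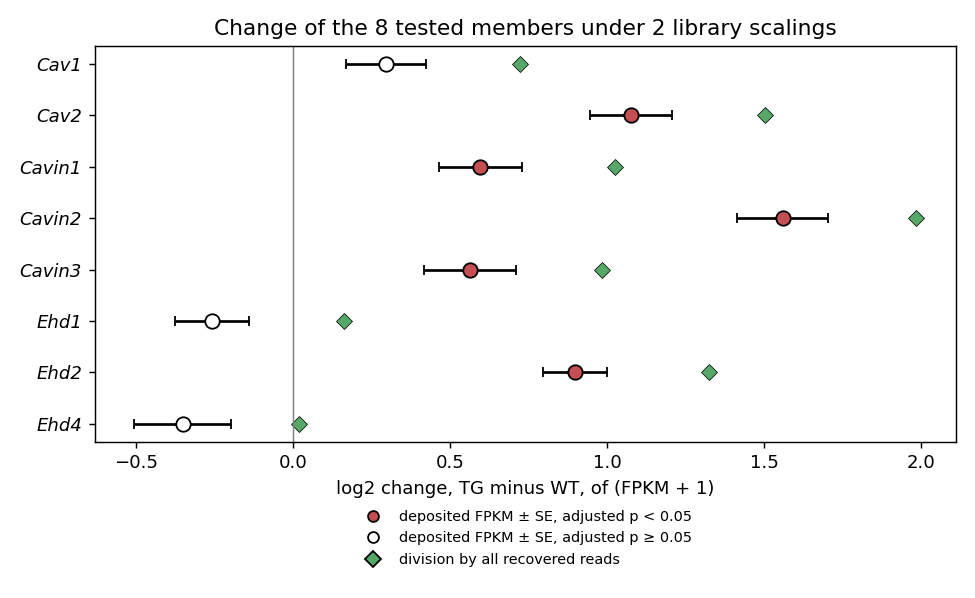
Log2 change of FPKM + 1, TG minus WT (horizontal axis), for the 8 tested genes; circles with bars are the change ± SE from the deposited FPKM, filled where the adjusted p was under 0.05, and diamonds the change under total-read scaling. The second scaling moves all 8 genes to the right, Ehd1 from -0.26 to 0.16 and Ehd4 from -0.35 to 0.019 (relative to the median of all genes both stay below 0), while Cavin2 stays highest at 1.56 and 1.98.

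**Figure D3:**
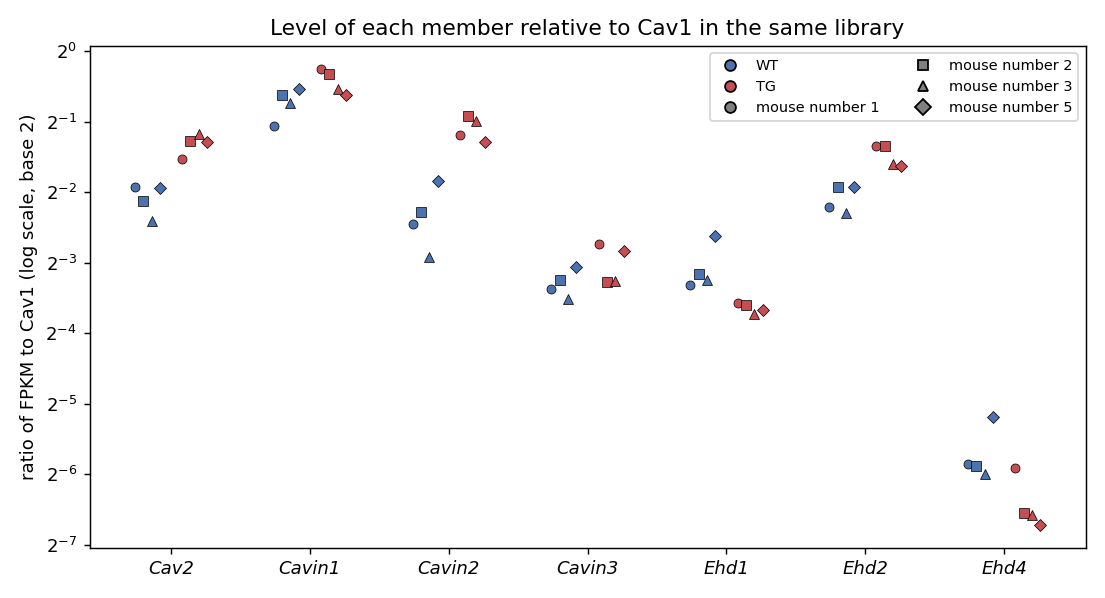
FPKM of 7 genes divided by that of Cav1 in the same library (vertical axis, log scale of base 2) for 4 WT and 4 TG libraries, with 1 symbol per library. Cav2, Cavin2 and Ehd2 lie higher and Ehd1 lower in TG without overlap, and Cavin1, Cavin3 and Ehd4 overlap.

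The order of levels changed in the middle of the list. In WT it was Cav1, Cavin1, Ehd2, Cav2, Cavin2, Ehd1, Cavin3, Ehd4 and Cav3, and in TG Cav1, Cavin1, Cavin2, Cav2, Ehd2, Cavin3, Ehd1, Ehd4 and Cav3. In both genotypes the libraries' ranges overlapped between Cav2 and Ehd2 and between Cav2 and Cavin2, and no other neighbours in either order overlapped. Cavin3 and Ehd1 changed places: Ehd1 exceeded Cavin3 in 4 of 4 WT libraries and Cavin3 exceeded Ehd1 in 4 of 4 TG libraries. Summed cavin FPKM came to 0.732 ± 0.113 of the summed caveolin FPKM in WT and 0.953 ± 0.0995 in TG (SD over n = 4 per genotype). The genotypes overlapped, at 0.601 to 0.863 in WT and 0.845 to 1.06 in TG, and this ratio was not tested.

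Cav3 encodes the caveolin of striated muscle and was the lowest of the 9. It had 1, 62, 4 and 0 reads in WT 1, 2, 3 and 5 (0.0734, 3.98, 0.26004 and 0 FPKM) and 12, 11, 8 and 66 reads in TG 1, 2, 3 and 5 (0.435, 0.449, 0.303 and 2.49 FPKM). WT 2 and TG 5 stood apart from the other libraries of their groups, and the difference between genotypes did not pass a two-sided exact permutation test (p = 1.0). The summed FPKM of 10 skeletal muscle markers was 3290.2 in WT 2 and 1849 in TG 5, against 12.4 to 336 in the other WT and 178 to 340.5 in the other TG libraries. Cavin4, the muscle cavin, followed the same pair of libraries, with 2.50 FPKM in WT 2 and 1.59 in TG 5 against at most 0.828 in the others. Of the muscle markers Tnnc2 was listed at 0 in all 8 libraries, and none of the 8 that were tested passed between genotypes; the part of muscle RNA in the Cav3 reads was not tested.

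Caveolins and cavins are made by several cell types of fat, so marker lists of these cells were read in the same libraries. Of 10 general adipocyte markers 8 rose and 2 did not pass (median log2 change 1.38), their summed FPKM being 7959 to 9929.6 in WT and 21593 to 33541 in TG. The 2 were Pparg (log2 change -0.015, limma adjusted p = 0.947) and Lpl (-0.27, adjusted p = 0.152). Cfd was the largest part of the sum, with a mean of 3702.5 FPKM in WT and 18445 FPKM in TG. Markers of the labelled tissue were read too: of 9 brown adipocyte markers 7 fell and 2 did not pass (median -3.07), with sums of 6972 to 9868 FPKM in WT and 623 to 1034 FPKM in TG, so the tissue's markers were present in all libraries but low in TG. Of 11 endothelial markers 10 fell and 1 did not pass (median -1.65), the sum going from 174 to 383 FPKM in WT to 37.4 to 60.7 FPKM in TG. The 1 that did not pass was Plvap (log2 change 0.28, limma adjusted p = 0.651). Cdh5, the cadherin of endothelial junctions, went from 28.9 ± 11.1 to 7.12 ± 2.12 FPKM (SD over n = 4 per genotype). Of 7 tested smooth muscle and pericyte markers 6 fell and Cspg4 rose (median -0.95); 5 fell and 1 rose under total-read scaling. The adipocyte and endothelial directions were the same under total-read scaling, with 9 of 10 higher and 10 of 11 lower. Cav2 and the 3 cavins were thus higher in the genotype in which most endothelial markers were lower and most general adipocyte markers higher. The part of either cell type in their levels was not tested.

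The counts of the other marker lists varied more with the scaling and with single libraries, apart from the erythroid list, of which 5 of 5 fell in each case. Over all 12508 genes total-read scaling called 5536 higher and 1442 lower, against 2788 and 2725 as deposited. Of 8 fibroblast markers 3 rose and 1 fell (4 and 0 under total-read scaling), and 2 rose without WT 2, without WT 3 or without TG 1, while 0 fell without WT 1, TG 2, TG 3 or TG 5. Of 8 macrophage markers 5 rose and 0 fell (7 and 0 under total-read scaling), 3 rose and 1 fell without TG 1, and 1 rose without WT 2 and TG 5. Of 3 tested neutrophil markers 3 fell, but 2 without WT 3, 1 without TG 2 or without TG 3, and 0 without WT 2 and TG 5. Of 3 lymphocyte markers none passed with limma, against 1 higher under total-read scaling or without WT 5 and 2 higher without TG 5. Of 3 Schwann cell markers 1 fell, and 2 fell without WT 3. No mesothelial marker reached the level for testing, their sum being at most 1.25 FPKM.

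**Figure D4:**
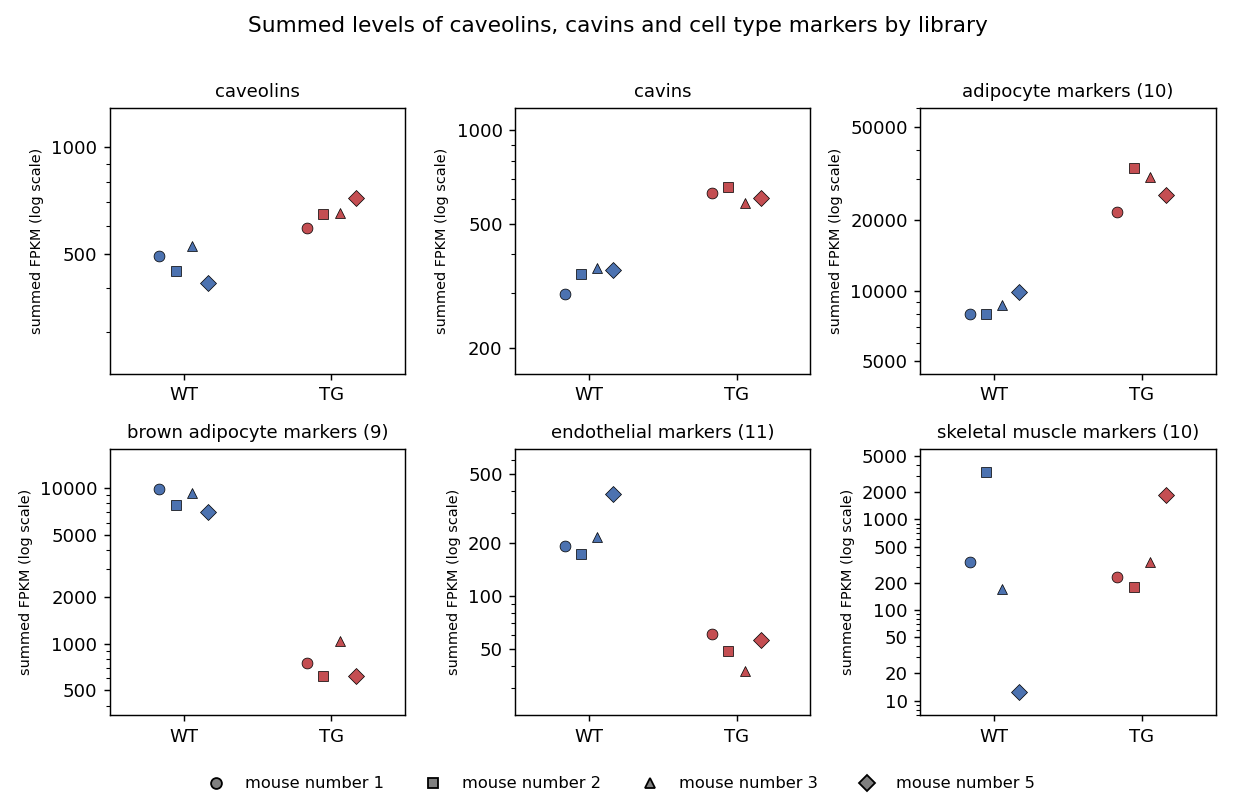
Summed FPKM (vertical axes, log scale) of the 3 caveolins, the 3 cavins and 4 lists of cell type markers in each WT and TG library, with 1 symbol per library. Caveolin and cavin sums and adipocyte markers are higher in TG, brown adipocyte and endothelial markers lower, and WT 2 and TG 5 stand out in skeletal muscle markers.

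Genes that work with caveolae and EHD proteins were read from 4 lists of 10 chosen by role. Over these lists 37 of 40 genes were tested, of which 11 rose and 5 fell (29.7% and 13.5%), against 22.3% and 21.8% of all genes; under total-read scaling 26 rose and 1 fell. In the list of proteins placed in adipocyte caveolae 7 of 10 rose, 1 fell and 2 did not pass (median log2 change 0.82), and under total-read scaling 8 rose and 0 fell. The insulin receptor gene Insr went from 3.41 ± 0.207 to 9.22 ± 0.52982 FPKM (SD over n = 4 per genotype; log2 change 1.21, limma adjusted p = 9.96e-06). Plin1, the droplet coat protein, rose by 1.25 and Aoc3, an amine oxidase of the adipocyte surface, by 0.93. Plin1 and Lipe, which rose by 0.83, are also on the list of adipocyte markers. Rhoq, a small GTPase of glucose transporter traffic, fell by 0.53 on the log2 scale (adjusted p = 0.00227), a call lost under total-read scaling (-0.11, adjusted p = 0.419).

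Partners of the coat itself (kinases, scission and actin-linking proteins) gave 0 higher and 1 lower of 7 tested with limma, with a median log2 change of 0.03. They gave 3 higher and 1 lower under total-read scaling (median 0.36, against 0.32 for all genes) or with voom (0.49, against 0.45). The gene that fell was Fyn, a Src family kinase, from 7.74 ± 2.86 to 2.64 ± 0.399 FPKM (SD over n = 4 per genotype; limma adjusted p = 0.00102). The scission GTPase gene Dnm2 had a log2 change of 0.23 (adjusted p = 0.0718) and the actin cross-linker gene Flna one of -0.46 (adjusted p = 0.0610); Dnm2 was called higher under total-read scaling (0.62, adjusted p = 0.00204) and Flna lower without TG 1 (-0.61, adjusted p = 0.0142). Ehd3, the remaining EHD gene, was below the level for testing, at 0.953 ± 0.375 FPKM in WT and 0.29999 ± 0.12988 in TG (SD over n = 4 per genotype). Its libraries ran from 0.482 to 1.40 FPKM in WT and from 0.160 to 0.454 FPKM in TG, without overlap.

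Of 10 partners of EHD proteins in recycling 1 rose, 1 fell and 8 did not pass (median 0.25). Under total-read scaling 8 rose and 0 fell (median 0.56, against 0.32 for all genes), where 5536 of all 12508 genes were called higher. Rab11a, the GTPase of the recycling endosome, fell by 0.60 on the log2 scale (limma adjusted p = 0.00396), a call lost under total-read scaling (adjusted p = 0.212). Rab8a had a log2 change of 0.27 (adjusted p = 0.0491), and its call was lost in 12 of 22 alternatives, including leaving out any 1 library other than WT 1. Flotillins and the clathrin coat, which serve other routes of uptake, gave 3 higher, 2 lower and 5 not passing of 10 (median 0.11), and 7 higher and 0 lower under total-read scaling (median 0.50, against 0.32 for all genes). Flot1, a flotillin of membrane microdomains, rose by 0.96 (adjusted p = 0.000848) and Cltc, the clathrin heavy chain, by 0.44 (0.00336). Cltb, a clathrin light chain, fell by 0.72 (0.00102) and Ap2s1, a subunit of the AP-2 adaptor, fell by 0.65 (0.000860); both calls were lost under total-read scaling (adjusted p = 0.0663 and 0.102).

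The genes whose profile over the 8 libraries lay nearest to those of Cav1 and Ehd2 were sought among 10791 protein-coding genes. Likeness was the root mean square difference of log2(FPKM + 1) after each gene's own WT mean was subtracted, and all values of a library share its scaling. Nearest to Cav1 were Metap2 (0.046), Erlec1 (0.053), Zxdc (0.058), Skap2 (0.066) and Rtn4 (0.067). Nearest to Ehd2 were Afap1 (0.055), Stat5a (0.061), Vkorc1l1 (0.062), Cbx5 (0.062) and Zfp362 (0.077).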

How the data were processed

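RNA of 4 WT and 4 TG brown adipose tissue samples was sequenced. RNA came from frozen tissue by TRIzol and libraries from an Illumina TruSeq kit, per the labels' protocols. The submitters' processing notes list bcl2fastq, HISAT2 (2.0.5), featureCounts (1.5.0-p3) and build mm10. The authors deposited FPKM per gene beside a gene length. The sources used here do not state the strand setting, the annotation release or the divisor of the FPKM. Columns were matched to samples by name.

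Multiplying FPKM by length gave whole multiples of 1 value per library (largest distance from a whole number 1.61e-07), hence the reads. Their total was 1.02 to 1.22 times the divisor for WT libraries and 0.822 to 0.883 times for TG. Without strand, reads of a gene and its antisense partner cannot be told apart.

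Genes were tested with limma 3.58.1 (R 4.3.3; two-sided moderated test whose variance prior follows the mean level) on log2(FPKM + 1), with Benjamini-Hochberg adjustment over all 12508 genes at 0.05. Such changes understate those of low genes. Ratios were compared with exact permutation tests over 70 assignments (scipy 1.17.1). The procedure was also run on simulated data with known library sizes and few changed genes, so that run cannot speak to the unknown divisor. The members, lists and motifs were chosen with earlier results of these data known. The genes named are the 9 members, Clcf1 and the nearest profiles of Cav1 and Ehd2. Up to 4 per partner list with the lowest p are named too, with any called against its list's majority. Cdh5, Plvap, Cspg4, Tnnc2, Cavin4, Ehd3, Nos3, Pparg, Lpl, Cfd and Lipe were named after their values were seen. A gene that the rule names is not reported here. Alternatives covered pseudocount, filter, scaling, variance model, voom, a restriction to protein-coding genes, a block for the replicate number and the removal of libraries. Ratios without WT 2 and TG 5, and those of Ehd1 and Ehd4 to Ehd2, were added after seeing the data. Figures were drawn with matplotlib 3.10.9.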

Additional observations from a re-analysis of the deposited data

Results flagged for a closer look

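In 74 groups of 4 libraries, 9 held a value far from the other 3 by Dixon's test, and chance flags about 1 in 20. Cav3 was one such case in both genotypes: WT 2 stood at 3.98 FPKM against 0 to 0.26004 in the other WT libraries, and TG 5 at 2.49 FPKM against 0.303 to 0.449 in the other TG libraries. The same libraries stood apart in the sum of skeletal muscle markers, WT 2 at 3290.2 FPKM against 12.4 to 336 and TG 5 at 1849 FPKM against 178 to 340.5.

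Cav2 was high in WT 1, at 103 FPKM (102.9) against 82.1 to 85.02 in the other WT libraries. Ehd4 was high in TG 1, at 7.33 FPKM against 4.73 to 4.90. The ratio of Ehd4 to Cav1 was high in TG 1, at 0.0167 against 0.00949 to 0.0107, and in WT 5, at 0.0274 against 0.0156 to 0.0173. Rab11a was high in WT 5, at 50.6 FPKM against 37.1 to 37.8.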

How the results depend on the processing

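Of 176 comparisons of the 8 tested members with an alternative, 163 kept direction and side of the threshold, 7 gained a call, 1 lost it and 5 turned direction. Cav2, Cavin1, Cavin2 and Ehd2 were called higher in all 22 alternatives. Ehd1 turned to 0.11, 0.16 and 0.17 (rescaling without abundant genes, total-read scaling, voom), Rab35 to 0.037, 0.083 and 0.089 in the same order, and Ehd4 to 0.019 and 0.021 in the last pair. The median of all genes is 0.28, 0.32 and 0.45 under these 3, and relative to it Ehd1 stayed at -0.17 and -0.16 and Ehd4 at -0.31 and -0.30 under the first pair. Genes higher numbered 1445 with a filter of 5 FPKM, 5287 with that rescaling, 5536 with total-read scaling and 5629 with voom, and genes lower 1703, 1546, 1442 and 1447. Partners higher numbered 25, 26 and 26 under those scalings and 7 without WT 2 and TG 5, and partners lower 3, 1 and 1; the cause was not tested. Leaving out 1 library gave 5 to 6 members higher and 0 to 1 lower (Ehd4 without TG 1). Of 7 ratios to Cav1, 0 passed, and 4 did (adjusted p = 0.0429 each) only when the ratios to Ehd2, chosen after their values were seen, were adjusted with them. With libraries left out no ratio could pass, since 3 against 4 and 3 against 3 allow no p below 0.0571 and 0.1. No ratio changed direction when 1 library was left out. Samples of the same replicate number showed no sign of shared variation, with correlations of deviations of -0.19, -0.17, 0.04 and -0.24 for numbers 1, 2, 3 and 5. These values cannot show whether the numbers stand for pairs. With the number as a block 2389 genes were higher, 2458 lower, 5 members higher and 0 ratios passed (sign flips over 4 pairs allow no p below 0.125). Members held 319 or more reads per library apart from Cav3, where 0 to 66 reads limit any comparison.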
